A study of Nothobranchius furzeri with 10 samples.

Results

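The genes described here are 200 of the 26739 gene identifiers measured in skin of Nothobranchius furzeri, the turquoise killifish, an annual fish of seasonal pools with a very short life. They stood high in 4 of 10 skin libraries, 1 from the solvent control and 3 from rotenone-treated fish, and far lower in the other 6. The 10 libraries were RNA sequencing libraries made from skin of males of the strain MZM-0410p aged 27 weeks. DMSO, the solvent control, was the labelled treatment of 5 libraries, and 15 pM rotenone of the other 5. DMSO is labelled for the control group alone, and whether the rotenone libraries also received the solvent is not given. The labels state no treatment length, batch or pairing, and leave it unsaid whether a library is 1 fish, so the tests below gauge spread among libraries, which may be technical. Replicates are numbered by deposition order as names only.

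Members were chosen from the measured values. Genes were filtered for low counts, which kept 18435, and scaled to counts per scaled library total (CPM) with TMM, a scaling that allows for differences in library composition. A gene met the rule when its lowest log2 CPM (prior count 2) among DMSO replicate 2 and rotenone replicates 3, 4 and 5 lay above its highest among the other 6 libraries. Of the 18435 genes, 597 met it (3.24%), and the 200 with the largest difference of mean log2 CPM between the 4 high and the other 6 libraries are the members. The rule was met by 1031 genes without rotenone replicate 4 and by 366 with scaling to plain library totals. The contrast between those libraries is therefore given as a description with no test. The choice puts 3 of 5 rotenone libraries but 1 of 5 DMSO libraries on the high side, which tilts the members towards rotenone, and it makes the DMSO and rotenone values of every member overlap. The identifiers carry no gene names: 0 of 26739 matched the RefSeq gene table of the species, so no function, position or sequence is given for any member, and skin or other cell type markers could not be looked up.

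Fish skin is a layered tissue. A living epidermis with mucous and other secretory cells lies over a dermis that holds scales, pigment cells, vessels and nerves, and beneath the dermis lie fat and body muscle. Rotenone blocks complex I, the enzyme through which electrons from NADH enter the mitochondrial respiratory chain. In a bulk library, more cells of a type and more RNA per cell cannot be told apart.

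Total counts ran from 18801139 to 42253397 per library, and between 20885 and 21715 genes had at least 1 read. The 4 high libraries were neither the deepest nor the shallowest, with totals from 25565008 to 33406901 and 21455 to 21551 genes detected. Their TMM factors ran from 0.856 to 1.03, against 0.947 to 1.09 in the other 6. The part of these measures in the results below was not tested.

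The members went from almost no reads to a visible part of the skin transcriptome. They took 3.15% of all reads in DMSO replicate 2, 1.43% in rotenone replicate 5, 1.18% in rotenone replicate 3 and 0.231% in rotenone replicate 4. In the other 6 libraries they took 0.0209% to 0.0418%. The 95% exact binomial intervals were narrow, for example 3.145% to 3.159% in DMSO replicate 2 and 0.0203% to 0.0214% in rotenone replicate 1, and cover counting error only. Rotenone replicate 4 thus sat apart from the other high libraries, with a share nearer to the low ones than to DMSO replicate 2. The 397 genes that met the rule but were not members are by the cut those with the smaller differences. They took 1.07% to 1.70% of reads in the high libraries and 0.785% to 0.945% in the others.

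**Figure D1:**
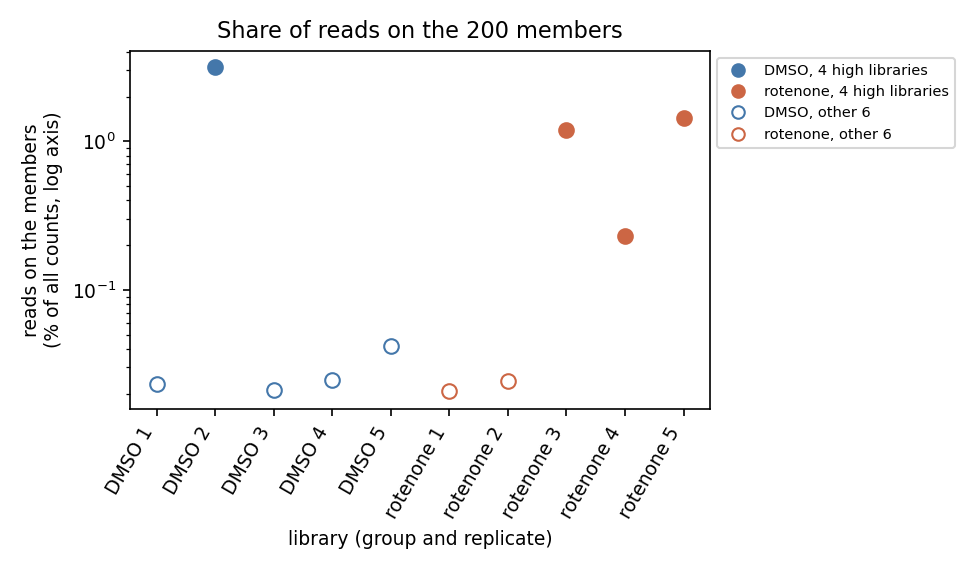
Percent of each library's counts that fell on the 200 members, on a log axis, with 95% exact binomial intervals that are smaller than the points. Filled points are the 4 high libraries, which run from 0.231% to 3.15%, and open points are the other 6, which run from 0.0209% to 0.0418%.

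Median levels of the members followed the same order, though rotenone replicate 3 exceeded rotenone replicate 5 in 94 of the 200 members. The median member stood at 44.3 CPM in DMSO replicate 2, 23.0 in rotenone replicate 5, 21.8 in rotenone replicate 3 and 5.42 in rotenone replicate 4. Its level in the other libraries lay between 0.348 CPM in DMSO replicate 1 and 0.950 CPM in DMSO replicate 5. A few members were well detected there too, the highest at 4.40 log2 CPM in DMSO replicate 5. The median of all tested genes stayed between 11.2 and 12.4 CPM in the 10 libraries, a steadiness that TMM scaling itself favours.

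Ranked by level per gene length (RPKM computed from the counts, each library's own total and a recovered gene length), the median member stood at place 3032 in DMSO replicate 2. Its place was 5550 in rotenone replicate 5, 5562 in rotenone replicate 3 and 12508 in rotenone replicate 4. In the other 6 libraries it stood between places 16612 and 17736, close to the bottom of the 18344 tested genes with a length. Among the 1000 genes most abundant per length were 40 members in DMSO replicate 2, 25 in rotenone replicate 5, 19 in rotenone replicate 3, 6 in rotenone replicate 4 and 0 in each of the other 6. Of the 100 genes with the highest mean share of reads over the series, 0 were members.

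**Figure D2:**
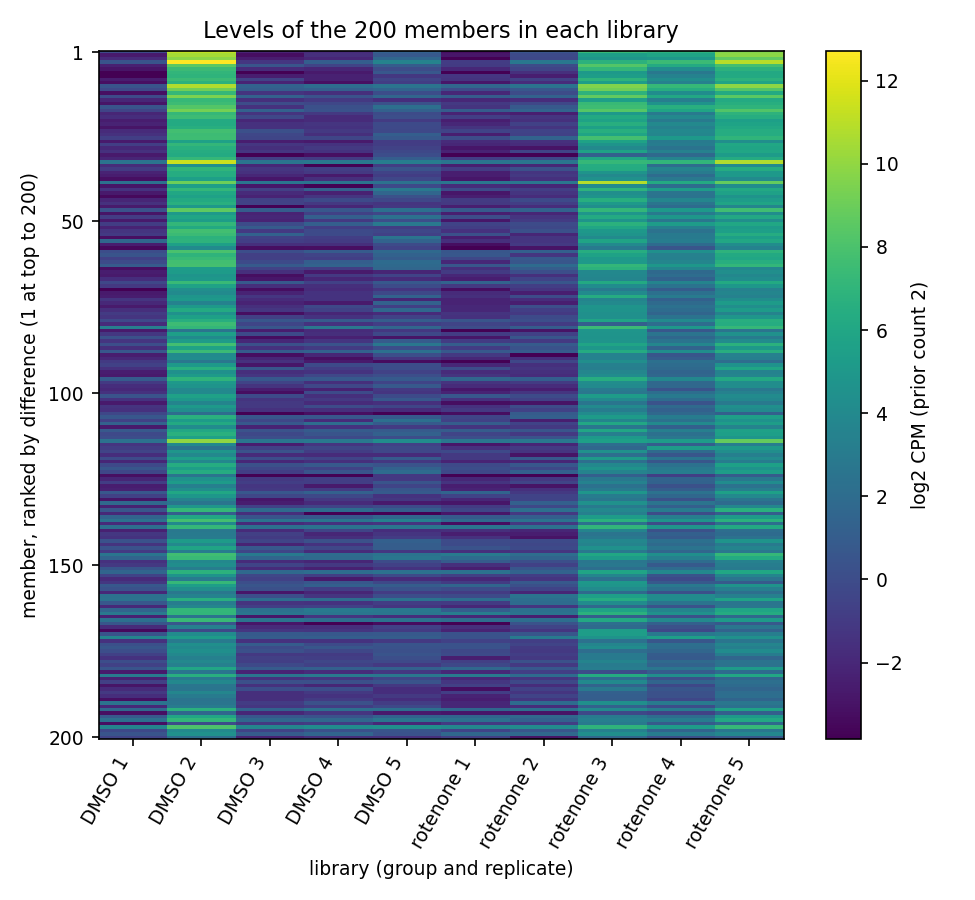
Log2 CPM of the 200 members (rows, ranked from the largest difference at the top) in the 10 libraries (columns). The columns of DMSO replicate 2 and rotenone replicates 3 to 5 are bright over the whole list, rotenone replicate 4 is the dimmest of these, and DMSO replicate 5 is slightly brighter than the other 5 low libraries in the upper rows.

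Differences between the high and the low libraries ran from 2.83 to 9.67 on the log2 CPM scale, with a median of 4.66. As a ratio of mean CPM they ran from 5.33-fold to over 1000-fold, with a median of 35.04-fold. The ratio passed 10-fold in 189 members, 100-fold in 42 and 1000-fold in 2. Those 2, ranked 1 and 2, had 1 to 75 and 1 to 54 counts per low library. With so few reads below the line, the largest ratios are imprecise. Member 200 had a difference of 2.832, at 2.62 CPM in the high and 0.314 CPM in the other libraries, and the gene just outside, at rank 201, had 2.831, at 4.39 and 0.599 CPM. The opposite pattern, 4 libraries wholly below the other 6, was met by 122 genes (0.662%). Those differences were small, with a median of -0.38 and an extreme of -2.18 on the log2 scale, and 0 of the 122 reached the size of the smallest member difference. This contrast too chose its own genes and was not tested.

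Nfu_g_1_020514 (695 bases of recovered length) had the largest difference. It reached 2263 CPM in DMSO replicate 2, 817 in rotenone replicate 5, 156 in rotenone replicate 3 and 110 in rotenone replicate 4. In the remaining DMSO libraries it stood at 0.826 (replicate 1), 0.145 (replicate 3), 0.219 (replicate 4) and 2.33 CPM (replicate 5), and in rotenone replicates 1 and 2 at 0.0365 and 1.29 CPM. The ratio of means was 1034-fold. By level per length it was the 25th most abundant tested gene in DMSO replicate 2 and held place 18166 in rotenone replicate 1, close to the last place.

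Nfu_g_1_015055 (1514 bases), the member with the highest mean CPM, reached 6745 CPM in DMSO replicate 2, 1975 in rotenone replicate 5, 178 in rotenone replicate 4 and 112 in rotenone replicate 3. It stood at 1.33, 0.363, 2.06 and 11.7 CPM in DMSO replicates 1, 3, 4 and 5, and at 0.474 and 6.86 CPM in rotenone replicates 1 and 2. In DMSO replicate 2 this gene alone took 0.656% of all reads and was the 10th most abundant tested gene by level per length, at 4332 RPKM.

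Nfu_g_1_000821 (966 bases) departed from that order. It stood at 144 CPM in DMSO replicate 2 and 32.3 in rotenone replicate 3, but at 1.68 and 1.73 CPM in rotenone replicates 4 and 5, little above the 1.63 CPM of rotenone replicate 2. DMSO replicates 1, 3, 4 and 5 had 0.370, 1.02, 1.49 and 0.778 CPM, and rotenone replicate 1 had 0.438. It ranked 155th by difference, and its place rested on 2 of the 4 high libraries.

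**Figure D3:**
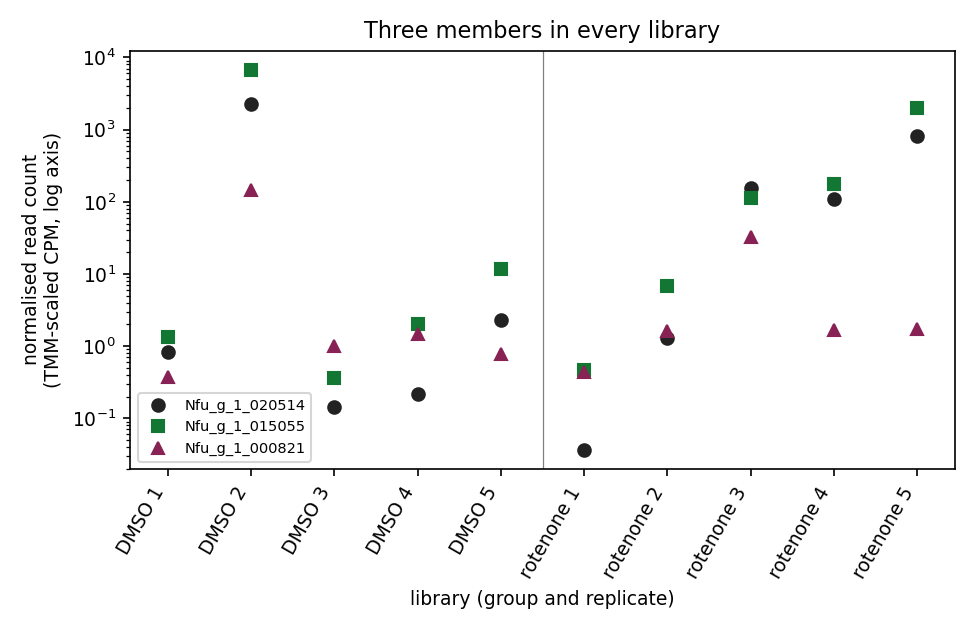
Normalised read counts (TMM-scaled CPM, log axis) of the 3 identified members in each library, DMSO to the left of the line and rotenone to the right. Nfu_g_1_020514 and Nfu_g_1_015055 are above 100 CPM in all 4 high libraries, whereas Nfu_g_1_000821 is above 30 CPM only in DMSO replicate 2 and rotenone replicate 3.

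Further members are given by rank. The members ranked 2 and 3 shared with the first the lead of DMSO replicate 2 and rotenone replicate 5, but had rotenone replicate 4 above replicate 3, with 1426 and 912 CPM in DMSO replicate 2, 900 and 414 in rotenone replicate 5, 40.7 and 27.5 in rotenone replicate 3 and 56.5 and 31.49 in rotenone replicate 4. Both were at or under 3.18 CPM in each of the other 6. The member ranked 5 had a different order, with rotenone replicate 3 (311 CPM) close to DMSO replicate 2 (376 CPM) and above rotenone replicates 5 (220 CPM) and 4 (79.1 CPM). In the middle of the list, the member ranked 100 stood at 15.9, 10.9, 6.43 and 4.29 CPM in DMSO replicate 2 and rotenone replicates 5, 3 and 4, and at 0.0363 to 0.831 CPM elsewhere.

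Recovered gene lengths of the members were close to those of other genes: the median was 2632 bases (quartiles 1388 and 4078) against 2722 (quartiles 1359 and 4736) for the tested genes, and members ranged from 186 to 14321 bases. Taking in each library its own 10 members with the most reads, these held 57.5% of member reads in DMSO replicate 2, 52.9% in rotenone replicate 5, 44.0% in rotenone replicate 3, 38.6% in rotenone replicate 4 and 27.7% to 37.1% in the other 6.

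The order within the high libraries is not fixed by the rule. DMSO replicate 2 was the highest of the 10 libraries in 167 members, rotenone replicate 3 in 29, and rotenone replicates 4 and 5 in 2 each. Rotenone replicate 4 was the lowest of the 4 in 185 members. Pair by pair, DMSO replicate 2 exceeded rotenone replicates 3, 4 and 5 in 170, 194 and 191 members. It did so in 259, 310 and 305 of the 397 other genes meeting the rule, and in 9153, 9197 and 9189 of all 18435 tested genes. Rotenone replicate 3 exceeded rotenone replicate 4 in 192 members, in 316 of the 397 and in 9387 of all tested genes. Of the 6 pairs of high libraries, the ratio of DMSO replicate 2 to rotenone replicate 5 varied least from member to member (narrowest quartile range): DMSO replicate 2 was 1.79-fold higher at the median (quartiles 1.57 and 2.08), and 190 of the 200 members (95%) lay within 2-fold of that median, as did 91.1% of all tested genes of theirs. The ratio of DMSO replicate 2 to rotenone replicate 4 had a median of 8.05 (quartiles 5.23 and 11.55) with 139 members (69.5%) within 2-fold of it, against 85.1% of all tested genes. To rotenone replicate 3 it had a median of 1.94 (quartiles 1.26 and 3.05) with 140 members (70%) within 2-fold, against 85.6% of all tested genes. Over all tested genes the same 3 ratios had medians near 1 (0.999 to rotenone replicate 5, 0.999 to rotenone replicate 4 and 0.997 to rotenone replicate 3). TMM scaling centres the bulk of genes between libraries, so medians near 1 largely follow from it.

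Rotenone replicate 3 set some members apart. Its ratio to rotenone replicate 5 lay within 2-fold of the median ratio in 136 members (68%), as it did for 87.7% of all tested genes with theirs. In 29 members rotenone replicate 3 exceeded both DMSO replicate 2 and rotenone replicate 5. These had median levels of 28.3 CPM in rotenone replicate 3, 16.4 in DMSO replicate 2, 9.59 in rotenone replicate 5 and 5.70 in rotenone replicate 4. In 16 members rotenone replicate 3 was over 4-fold below rotenone replicate 5, with medians of 9.60 CPM against 77.1, and with 141 CPM in DMSO replicate 2 and 8.40 in rotenone replicate 4. DMSO replicate 2 was the highest of the 10 libraries in 15 of the 16. Of the 10 members with the largest difference, 4 belonged to these 16, ranks 1 to 4, and 0 to the 29. The remaining 155 members had medians of 44.5, 23.3, 21.7 and 5.18 CPM in DMSO replicate 2 and rotenone replicates 5, 3 and 4. These classes have unlike cuts, and the share of all tested genes in each was not computed. They were drawn after the values were seen and are not tested.

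**Figure D4:**
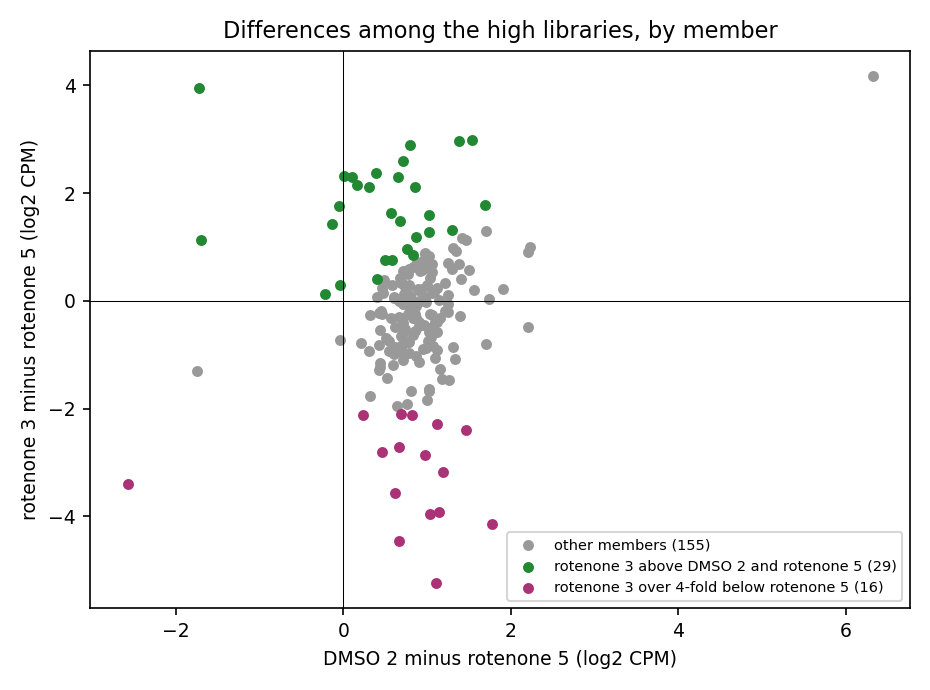
Each point is a member, placed by its log2 CPM difference between DMSO replicate 2 and rotenone replicate 5 (horizontal) and between rotenone replicates 3 and 5 (vertical). Points crowd around a horizontal value of 0.84 while spreading from -5.23 to 4.17 vertically, with 29 members in green (rotenone replicate 3 highest) and 16 in purple (rotenone replicate 3 over 4-fold below rotenone replicate 5), and Nfu_g_1_000821 lies far to the right.

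A few members had an order of the 4 libraries unlike most. The member ranked 116 was high in rotenone replicates 4 (38.0 CPM) and 5 (33.2 CPM), but stood at 5.51 CPM in DMSO replicate 2 and 3.10 in rotenone replicate 3. The member ranked 169 reached 42.3 CPM in rotenone replicate 3 against 2.69, 0.764 and 0.745 CPM in rotenone replicate 5, DMSO replicate 2 and rotenone replicate 4. Its highest value among the other 6 was 0.436 CPM. The member ranked 196 stood at 7.54 CPM in rotenone replicate 3, 3.42 in replicate 5, 1.83 in replicate 4 and 1.01 in DMSO replicate 2.

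Among the 6 low libraries, DMSO replicate 5 carried more of the members than the others. Its share of reads on them was 0.0418% (95% exact binomial interval 0.0410% to 0.0425%), against 0.0209% to 0.0247% in the other 5. The intervals cover counting error only, and those of some of the other 5 do not meet each other either. It was the highest of the 6 in 106 members (53.0%), but in 12.8% of all tested genes. The 2 shares are not a like comparison. The filter required sufficient counts in 5 libraries, so a member needed them in at least 1 of these 6. That favours genes raised in 1 low library, and its part in the lead of DMSO replicate 5 was not tested. Rotenone replicate 2, the smallest library, was the highest of the 6 in 34 members (17.0%) and in 28.5% of all tested genes. By class, DMSO replicate 5 led in 10 of the 16 members low in rotenone replicate 3, in 85 of the 155 and in 11 of the 29, while rotenone replicate 2 led in 2, 22 and 10. Counts here were small, and 16 members had a count of 0 in at least 1 of the 6 libraries, at most in 4.

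The filter on low counts bears on who is a member. It required sufficient counts in 5 libraries, the size of a treatment group, so a gene expressed in the 4 high libraries and silent elsewhere could not pass. Without a filter, 795 genes met the rule, 215 of which the filter had left out. In that case 71 of these genes took places among the first 200 and 129 members stayed. Those 71 had summed counts of 0 to 39 over the 6 low libraries and mean levels of 1.49 to 41.0 CPM over the 4 high ones. The members are thus the part of the pattern with counts sufficient for the filter in at least 1 low library.

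Rotenone against DMSO was the comparison the study set up, and it asks whether a picomolar dose of the complex I inhibitor alters skin expression. The rule for members places high and low libraries in both treatment groups, which raises their spread and works against a call. Counts of members called are therefore a description. Their shares are not a like comparison with those of all genes, and nothing is read from them about treatment. No member was called: with edgeR's quasi-likelihood test over all 18435 genes, 0 of 200 passed an adjusted p under 0.05, with a smallest member value of 0.48, and 0 of all genes did (0%). At an unadjusted p under 0.05, 3 members were higher in rotenone (1.5%, against 3.73% of all genes) and 0 were lower (against 3.93%). These 3 are the members ranked 116, 169 and 196 described above, in each of which at least 2 rotenone libraries exceeded DMSO replicate 2. DESeq2 gave an adjusted p to 182 members and called 0, against 0.287% of its tested genes called higher and 0.875% called lower. Nfu_g_1_020514, Nfu_g_1_015055 and Nfu_g_1_000821 were not among those 182. At an unadjusted p under 0.05 it had 2 members higher (1.10%, against 3.89% of its tested genes) and 0 lower (against 5.25%).

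The fitted log2 fold changes of the members had a median of 0.19 (rotenone minus DMSO) and ran from -1.95 to 4.62. Values above 0 were found in 138 of 200 members, 69.0%, and in 55.4% of all tested genes, whose median was 0.03. The choice of members tilts their values towards rotenone, so the 2 shares are not a like comparison. The member median was below 0 when DMSO replicate 1, 3, 4 or 5 or rotenone replicate 3 or 5 was left out, lowest at -0.37 without rotenone replicate 5. Their precision was poor. The median standard error was 1.52 for members and 0.22 for all tested genes, and the median SD between libraries of a treatment group was 2.72 on the log2 scale for members and 0.35 for all tested genes. A rule that splits both treatment groups raises that SD by construction.

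The number of members higher in rotenone skin depended on the scale. By mean CPM 135 of 200 members were higher in rotenone, against 55.3% of all genes. By mean log2 CPM 199 were, against 55.0% of all genes, since DMSO replicate 2 weighs more in a mean of CPM. The median member difference (log2, rotenone minus DMSO) was 0.16 between mean CPM and 1.34 between mean log2 CPM, and voom gave a median of 1.67. The choice of members put 3 of 5 rotenone but 1 of 5 DMSO libraries on the high side, which favours rotenone in a mean of log2 values. Members and all genes are therefore not a like comparison here, and nothing is read from these values about treatment. Nfu_g_1_020514 had a mean of 453 ± 1011 CPM in DMSO and 217 ± 342 CPM in rotenone (SD, n = 5 each), a fitted log2 fold change of -1.06 ± 2.49 (SE, edgeR adjusted p = 0.95), while its mean log2 CPM was 2.54 higher in rotenone. Nfu_g_1_015055 had 1352 ± 3015 CPM in DMSO and 455 ± 853 CPM in rotenone (SD, n = 5 each), with a log2 fold change of -1.57 ± 2.51 (SE, edgeR adjusted p = 0.93) and a mean log2 CPM 2.10 higher in rotenone. For Nfu_g_1_000821, with 29.5 ± 63.8 and 7.55 ± 13.8 CPM (SD, n = 5 each), the log2 fold change was the lowest of the members at -1.95 ± 1.79 (SE, edgeR adjusted p = 0.86).

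Without DMSO replicate 2 the log2 fold changes were above 0 in 200 of 200 members, with a median of 3.87, and 189 had an unadjusted p under 0.05 in the higher direction (94.5%, against 5.28% of all genes). Still 0 passed an adjusted p under 0.05 in edgeR (smallest 0.23), while DESeq2 called 135 of the 196 members it tested (68.9%, against 1.69% of its tested genes). That result follows from the choice of members, since every remaining high library was then a rotenone library, and nothing is read from it about treatment.

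When the 2 sets of libraries entered the edgeR fit as a term, treatment was compared within the 4 high and within the 6 low libraries. The median log2 fold change of the members was then -0.85, with 18 of 200 above 0 (9%, against 53.6% of all genes). At an unadjusted p under 0.05, 22 members were lower in rotenone (11%, against 3.88% of all genes) and 0 higher (against 4.03%). At an adjusted p under 0.05, 0 members passed (smallest 0.51), against 0% of all genes higher and 0.00542% lower. A DMSO library was most often the highest of each set, DMSO replicate 2 in the high set and DMSO replicate 5 in the low set. The low set held more DMSO than rotenone libraries. What part this had in the fitted values was not tested. The high set held 1 DMSO library, so no estimate of spread among DMSO libraries came from it. Sets and members were themselves drawn from these values. The shares of members and of all genes are therefore not a like comparison here, and nothing is read from them about treatment.

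**Figure D5:**
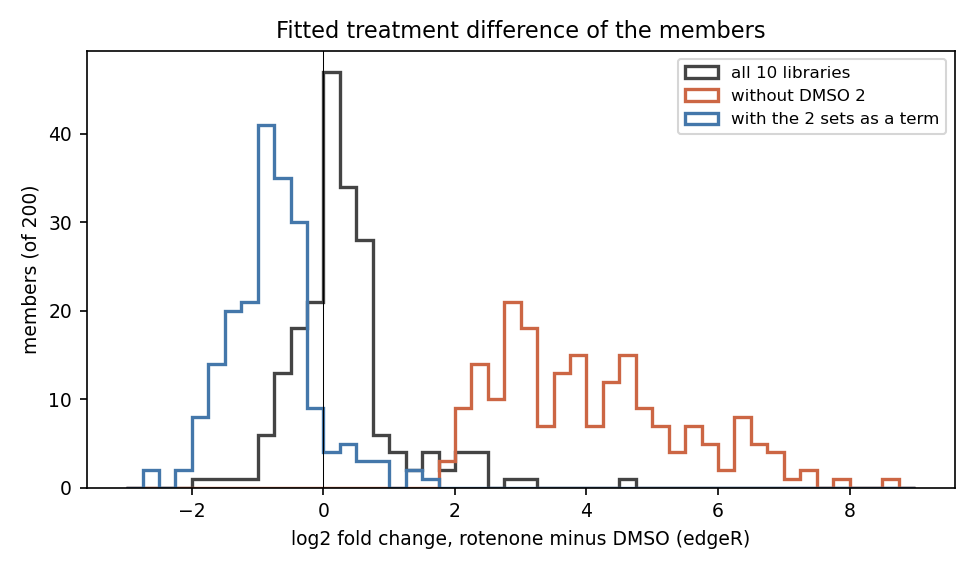
Distribution over the 200 members of the edgeR log2 fold change, rotenone minus DMSO, with all 10 libraries (black, median 0.19), without DMSO replicate 2 (orange, median 3.87) and with the 2 sets of libraries as a term (blue, median -0.85). Of the 200 members, 138, 200 and 18 lie above 0 in these fits.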

How the data were processed

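RNA was prepared with the TruSeq RNA Library Preparation Kit v2, per the labels' protocols. The authors deposited raw read counts and RPKM values for 26739 genes in 10 libraries. Tools named, per the submitters' processing notes, are STAR 2.4.1d, featureCounts 1.4.6-p4 and bcl2fastq 1.8.4. Not given in the sources used here are the genome build, the annotation, the strand setting and how reads with several alignments were counted, so near-identical copies and overlapping or antisense genes may share or lose reads.

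The deposited RPKM values served only to recover gene lengths. Over 4793 abundant genes the implied length had a median CV across libraries of 31.4% when each column was paired with its own total, and of 0.0019% when the totals were cycled down the rows and on through the columns, so the cycled totals were used.

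Genes passed filterByExpr at a minimum count of 10 in a smallest group of 5. Rotenone was compared with DMSO, after TMM scaling and without covariates, by the quasi-likelihood test of edgeR 4.0.16 (R 4.3.3; glmQLFTest on a robust glmQLFit), two-sided, with Benjamini-Hochberg adjustment over all tested genes. Standard errors of log2 fold changes were derived from that test, as the absolute log2 fold change divided by the square root of its F value. Alternatives were RLE, upper-quartile and library-size scaling, 2 other filters, prior counts of 0.5 and 5, DESeq2 1.42.0, limma 3.58.1 (voom), the 2 sets as a term and each library left out. DESeq2 without DMSO replicate 2 was added after the data were seen. The edgeR fit, with and without the 2 sets as a term, DESeq2 and voom were run on simulated counts for all 10 libraries. The simulated spread was capped far below the median spread of the members. It therefore does not show how these fits behave on the members, and the other settings were not simulated.

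The members and lists were chosen with earlier results of these data known. With no names to attach, the rule for identifiers took the member with the largest difference, the one with the highest mean CPM and the 2 with the lowest log2 fold change, which came to 3 genes. Members given by rank were picked after their values were seen.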

Additional observations from a re-analysis of the deposited data

Results flagged for a closer look

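Of 14 sets of 5 values (7 measures in each treatment group), 4 had a library far from the other 4, where chance alone singles out about 1 in 20. In each it was DMSO replicate 2, the only DMSO library on the high side of the member rule, so these follow from the choice of members. Its share of reads on the members was 3.15%, against 0.0212% to 0.0418% in the other DMSO libraries. Its median member level was 5.47 log2 CPM, against -1.26 to 0.03. Nfu_g_1_020514 stood at 11.1 log2 CPM there, against -2.22 to 1.27, and Nfu_g_1_000821 at 7.17, against -1.19 to 0.64.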

How the results depend on the processing

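The count of 0 members called held in edgeR under each scaling, filter and left-out library, with the 2 sets as a term, and in voom. It held in DESeq2 with all 10 libraries, among the 182 members given an adjusted p. In DESeq2 without DMSO replicate 2 the count became 135 (68.9%, against 1.69% of its tested genes), which follows from the choice of members. Over all genes the calls were 18 with library size only, 1 with voom, 1 with the 2 sets as a term, 231 with DESeq2 and 626 with DESeq2 without DMSO replicate 2. Members at an unadjusted p under 0.05 numbered 22 with the sets as a term, all lower in rotenone (11%, against 3.88% of all genes). With a library left out they numbered 2 to 189, highest without DMSO replicate 2 (94.5%, against 5.28% of all genes). In DESeq2 without DMSO replicate 2 they numbered 192, and the share of all genes beside it is not given. The counts of 189 and 192 follow from the choice of members. The median log2 fold change of the members was 1.67 with voom, -0.85 with the sets as a term and 3.85 with DESeq2 without DMSO replicate 2, and lay between -0.37 and 3.87 when libraries were left out singly, highest without DMSO replicate 2. It fell below 0 without DMSO replicate 1, 3, 4 or 5 or rotenone replicate 3 or 5. Genes meeting the rule numbered 366 with library size only and 668 to 1031 with a library left out, highest without rotenone replicate 4. Of the 200 members, 129 stayed without a count filter and 133 to 189 with a library left out, fewest without DMSO replicate 5. A left-out library lowers the filter's requirement from 5 to 4 libraries, and 133 to 136 members stayed when it was a low library.

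Log2 fold changes changed sign with voom, to 2.78 for Nfu_g_1_020514, 2.27 for Nfu_g_1_015055 and 0.34 for Nfu_g_1_000821. They did so without DMSO replicate 2, to 7.89, 6.87 and 3.05 in edgeR and 7.90, 6.84 and 3.02 in DESeq2. Leaving out single libraries gave -2.77 to 7.89, -4.19 to 6.87 and -4.43 to 3.05. For moves with no stated reason, the cause was not tested. No paired analysis was possible because the labels pair no libraries.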

Other observations

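Members lay next to each other in the deposited table more often than the other genes that met the rule. On adjacent rows were 38 of the 200 members (19.0%), in 19 pairs, against 26 of the 397 other genes (6.55%) and 0 of the 122 genes with the opposite pattern. The sources used here do not say what the row order stands for, so adjacent rows are not read as neighbouring genes. The sets differ in size, which by itself alters how often genes of a set fall on adjacent rows. No share was computed for sets of these sizes drawn from all genes, and the difference was not tested.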
